A study of Mus musculus with 9 samples.

Results

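The constitutive beta ring of the 20S proteasome is built from the products of 7 genes, *Psmb1* to *Psmb7*, and these genes were taken by name, with no cut on their values but with earlier results of these data known, from the 14443 genes that carry a symbol of their own in all 3 deposited tables. The RNA came from NRVMs, which are ventricular cardiomyocytes of newborn Sprague Dawley rats kept as primary cultures. After 48 h in culture, cells were infected with an adenovirus for LacZ, mouse Nrf1 or mouse Nrf2 at a multiplicity of infection of 50, and RNA was collected 48 h after infection. LacZ, a bacterial enzyme with no role in these cells, was the control, so that all groups had received a virus and no uninfected cells were sequenced. The transgenes were driven by a CMV promoter, which is not restricted to cardiomyocytes. Each group had 3 libraries, and nothing in the labels says whether those came from separate cultures. Every adjusted p given here therefore sets a difference between groups against a spread between libraries that may be technical. The estimate of that spread for a gene also draws on the other genes. The organism label of the samples names mouse, whereas the cell type and strain labels and the genome build (Rnor_6.0) name rat, and the cells are taken here to be rat.

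The 20S proteasome is a barrel of stacked rings that breaks down proteins marked with ubiquitin. The outer rings hold alpha subunits, which gate the entry, and the inner rings hold beta subunits, among which *Psmb6* encodes the caspase-like, *Psmb7* the trypsin-like and *Psmb5* the chymotrypsin-like protease. The products of *Psmb1*, *Psmb2*, *Psmb3* and *Psmb4* have no protease activity and complete the ring. Immune signals such as interferon induce *Psmb8*, *Psmb9* and *Psmb10*, whose products replace those of *Psmb5*, *Psmb6* and *Psmb7*, respectively. Nrf1 and Nrf2 are related transcription factors that pair with small Maf proteins and bind antioxidant response elements, and Nrf1 is known for raising proteasome genes when proteasome activity is low. Protein turnover matters to cardiomyocytes because they rarely divide and keep large amounts of contractile protein.

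The comparisons ask what raising either factor did to the RNA of this ring, so the stretch in front of each gene is shown first. RefSeq promoter sequences of the mouse (GRCm38.p6) were at hand for 4 of the 7 genes, *Psmb3*, *Psmb4*, *Psmb5* and *Psmb6*. They are mouse orthologs of the rat genes that were measured. Each line gives the 250 bases before the transcription start, 5′ to 3′ on the strand of the gene, and capitals mark the core of the antioxidant response element (TGACNNNGC) or the CCAAT box, both searched on both strands.
*Psmb3*, chr11:97703184-97703433, plus strand: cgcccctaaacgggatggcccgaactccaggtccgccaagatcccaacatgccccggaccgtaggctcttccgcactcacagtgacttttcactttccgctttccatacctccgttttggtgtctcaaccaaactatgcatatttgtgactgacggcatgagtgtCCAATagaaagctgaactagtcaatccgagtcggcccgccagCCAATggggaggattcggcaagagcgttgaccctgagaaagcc
*Psmb4*, chr3:94886959-94887208, minus strand: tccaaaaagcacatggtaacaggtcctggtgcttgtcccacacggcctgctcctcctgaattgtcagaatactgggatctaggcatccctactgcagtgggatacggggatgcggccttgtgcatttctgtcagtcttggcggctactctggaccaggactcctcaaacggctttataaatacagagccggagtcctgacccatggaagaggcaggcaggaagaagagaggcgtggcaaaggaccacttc
*Psmb5*, chr14:54617996-54618245, minus strand: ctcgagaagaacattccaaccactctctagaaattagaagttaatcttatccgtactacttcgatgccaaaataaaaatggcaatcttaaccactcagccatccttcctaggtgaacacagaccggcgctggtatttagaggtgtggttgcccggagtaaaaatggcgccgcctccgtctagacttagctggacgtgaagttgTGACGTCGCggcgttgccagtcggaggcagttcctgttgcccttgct
*Psmb6*, chr11:70525107-70525356, plus strand: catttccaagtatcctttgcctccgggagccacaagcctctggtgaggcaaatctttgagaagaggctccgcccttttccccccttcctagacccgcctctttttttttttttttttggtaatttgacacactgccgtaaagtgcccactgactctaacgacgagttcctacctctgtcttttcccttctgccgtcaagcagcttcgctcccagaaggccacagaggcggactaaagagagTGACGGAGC
The core TGACNNNGC occurred in *Psmb5*, as TGACGTCGC 47 to 39 bases before the start, and in *Psmb6*, as TGACGGAGC 9 to 1 bases before it. Of 32851 mouse promoters searched over the same 250 bases, 10.2% held this core. *Psmb3* held 2 CCAAT boxes, 85 to 81 and 43 to 39 bases before its start, and 33.8% of all promoters held at least 1. Neither motif was found in the *Psmb4* window. These matches describe letters in mouse sequence, and no binding was measured.

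The deposited tables give the mean normalised count of each group, and the whole reads of single libraries were recovered from these means. The libraries held 7894221 to 11960378 reads in genes, and a ring gene had 506 to 5123 reads in a library. Libraries of a group differed by more than counting noise in every pair, with a chi-square of 1.55 to 5.66 per degree of freedom and a median over genes of 0.559 to 1.13 against 0.455 under counting noise. No library was therefore counted as a second deposit of another, although repeats prepared from 1 RNA could differ in this way too. *Nfe2l2*, the gene of Nrf2, had 67550 to 78770 normalised counts in Nrf2 libraries against 3399 to 3493 in LacZ and 2815 to 2894 in Nrf1 libraries. Reads of the mouse transgene and of the rat gene cannot be told apart in these values, and the level of Nrf1 itself was not analysed here. Cardiomyocyte markers were present at 135940 to 157620 summed normalised counts in LacZ, 144480 to 145780 in Nrf1 and 163270 to 166720 in Nrf2 libraries.

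All 7 genes of the ring were upregulated in Nrf1 samples compared to LacZ samples, from 1.70-fold for *Psmb1* to 3.44-fold for *Psmb3*. In Nrf2 samples the same genes were 1.06-fold (*Psmb2*) to 1.58-fold (*Psmb3*) of LacZ, and 6 of the 7 rose by the test. Set directly against Nrf1 samples, Nrf2 samples had less RNA of all 7 genes. Values per library are given as normalised counts on a scale common to the 9 libraries. Libraries a, b and c of a group could not be matched to the replicate numbers of the labels, and the same letter in another group means nothing.

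Among the protease subunits, *Psmb6* had the lowest counts. Its caspase-like product cuts after acidic residues. LacZ libraries a, b and c had 597, 568 and 705 normalised counts of *Psmb6*, Nrf1 libraries 1861, 1666 and 1708, and Nrf2 libraries 835, 848 and 856. The Nrf1 libraries lay far above all others, and the Nrf2 libraries lay close to each other, above the highest LacZ library.

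*Psmb7* encodes the trypsin-like protease, which cuts after basic residues and is the first beta subunit to join the alpha ring during assembly. LacZ libraries had 1663, 1414 and 1525 normalised counts of *Psmb7*, Nrf1 libraries 3427, 3356 and 3223, and Nrf2 libraries 1696, 1725 and 1762. The Nrf1 libraries stood apart, while the lowest Nrf2 library exceeded the highest LacZ library only narrowly.

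*Psmb5* encodes the chymotrypsin-like protease, which cuts after hydrophobic residues and is the main target of proteasome inhibitors such as bortezomib. LacZ libraries had 1380, 1285 and 1290 normalised counts of *Psmb5*, Nrf1 libraries 2405, 2351 and 2407, and Nrf2 libraries 1701, 1731 and 1848. No group overlapped another, and the Nrf2 libraries lay between the others. The rise from LacZ to Nrf2 was 41.3% of the rise from LacZ to Nrf1, the highest such share in the ring.

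Of the structural subunits, *Psmb4* had the highest count in Nrf1 samples, and its product is the last to be built into the ring. LacZ libraries had 1723, 1734 and 1742 normalised counts of *Psmb4*, Nrf1 libraries 4851, 4826 and 4863, and Nrf2 libraries 2030, 2008 and 1971. Libraries of a group were nearly equal, and the step to Nrf2 was small beside the step to Nrf1. It came to 8.67% of the Nrf1 rise.

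*Psmb3*, whose product joins early in ring assembly, had the largest ratio in both comparisons with LacZ. LacZ libraries had 1086, 846 and 912 normalised counts of *Psmb3*, Nrf1 libraries 3237, 3242 and 3323, and Nrf2 libraries 1413, 1522 and 1569. LacZ library a was higher than the other two, and the groups did not overlap. The spread among the LacZ libraries, with a coefficient of variation of 13.1%, was the largest of the 21 combinations of gene and group, for which the median was 2.26%.

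*Psmb2* encodes a structural subunit next to that of *Psmb3*. LacZ libraries had 1086, 1130 and 1057 normalised counts of *Psmb2*, Nrf1 libraries 2228, 2228 and 2235, and Nrf2 libraries 1180, 1158 and 1136. The Nrf1 libraries were about equal to each other and well above the rest, whereas the lowest Nrf2 library and the highest LacZ library nearly touched. The Nrf2 rise was 5.86% of the Nrf1 rise, the smallest share in the ring.

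*Psmb1* encodes a structural subunit that is built in late. LacZ libraries had 2065, 2052 and 2090 normalised counts of *Psmb1*, Nrf1 libraries 3474, 3481 and 3615, and Nrf2 libraries 2448, 2566 and 2518. All groups were apart, with Nrf2 between LacZ and Nrf1, and the Nrf2 rise was 30.4% of the Nrf1 rise.

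**Figure D1:**
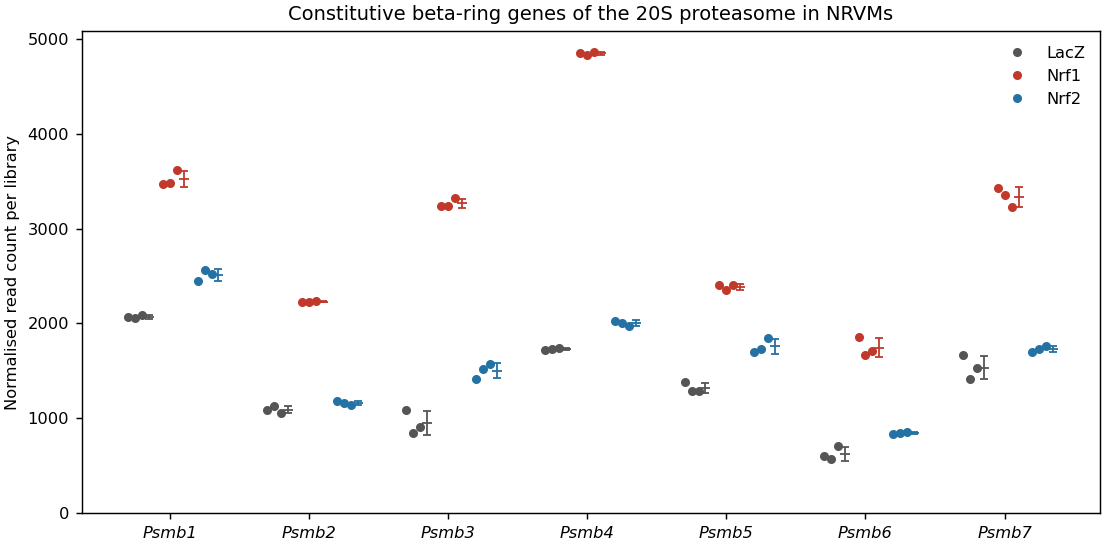
Normalised read count (y axis) of the 7 beta-ring genes (x axis) in each library of LacZ, Nrf1 and Nrf2, with the mean and SD of 3 libraries beside the points. Nrf1 libraries were the highest for every gene, from 1666 for *Psmb6* to 4863 for *Psmb4*, and Nrf2 libraries lay closest to LacZ for *Psmb2*.

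For Nrf1 against LacZ, ratios were taken from the deposited group means, and the test was limma on log2(normalised count + 1) of the recovered reads with Benjamini-Hochberg adjustment over 11202 genes. *Psmb3* was 3.44-fold of LacZ, with a log2 difference of 1.79 ± 0.07 (SE by limma, n = 3 per group) and an adjusted p of 2.41e-12 by limma. The SE by limma is drawn toward a trend over all genes, here and below. It is therefore not the plain SE of a gene's own libraries, and it can be smaller or larger than that. Only 0.713% of the 11220 genes with an average group mean of at least 10 had a higher ratio. *Psmb6* followed at 2.79-fold (1.49 ± 0.07 on the log2 scale, limma adjusted p = 3.34e-11), together with *Psmb4* at 2.79-fold (1.48 ± 0.03, limma adjusted p = 1.28e-14). The middle of the ring was held by *Psmb7*, at 2.17-fold (1.12 ± 0.05, limma adjusted p = 2.79e-11), and *Psmb2*, at 2.04-fold (1.03 ± 0.04, limma adjusted p = 4.83e-12). The smallest rises were those of *Psmb5*, at 1.81-fold (0.85 ± 0.04, limma adjusted p = 4.92e-11), and *Psmb1*, at 1.70-fold (0.77 ± 0.04, limma adjusted p = 3.21e-11), and 6.94% of the tested genes had a higher ratio than *Psmb1*.

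All 7 ratios passed the study's cutoff of 1.5-fold, which 11.5% of all genes tested passed upward. All 7 genes rose by limma at an adjusted p under 0.05, as 34.7% of all genes did. All 7 were also higher in every Nrf1 library than in any LacZ library, as were 36.5% of the genes. The median log2 ratio over the ring was 1.12, beside 0.006 over all genes. It was 1.12 over the 3 protease subunits and 1.255 over the 4 structural subunits. The log2 ratios ran from 0.85 to 1.48 in the former and from 0.77 to 1.78 in the latter, so both kinds held large and small rises. Scaled to ribosomal protein genes, whose median log2 ratio was -0.16 in this comparison, the ring's median was 1.28 and 7 genes still passed 1.5-fold. The share of all genes past 1.5-fold under this scaling was not computed. The summed normalised count of the ring was 9030.5 to 9601 in LacZ and 21150 to 21483 in Nrf1 libraries. Of the reads in recovered genes, the ring took 0.0997% ± 0.0022 (SD, n = 3) in LacZ and 0.217% ± 0.0023 in Nrf1 libraries.

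The fibroblast markers moved the other way in the same libraries. Their summed level was 122440 to 128100 normalised counts in LacZ, 31158 to 33585 in Nrf1 and 63813 to 68938 in Nrf2 libraries, with 8 of 8 markers lower in Nrf1 and 7 of 8 lower in Nrf2 than in LacZ by limma, beside 32.3% and 26.0% of all genes. Leukocyte markers summed to 1609 to 2364 in LacZ, 964 to 987 in Nrf1 and 893 to 1001 in Nrf2 libraries, and 6 of 7 were lower by limma in each comparison with LacZ. The remaining one, *Csf1r*, a receptor of macrophages, rose by 0.45 ± 0.12 on the log2 scale in Nrf1 samples (limma adjusted p = 0.00394) and was at 0.10 ± 0.13 in Nrf2 samples (limma adjusted p = 0.543). Endothelial markers summed to 1203 to 1271, 846 to 954 and 838 to 948, respectively, with 4 of 5 lower by limma in each comparison. No marker of any of these lists was at 0 in all libraries of a group. In bulk RNA, fewer cells of a type and less RNA per cell cannot be told apart, and the part of these shifts in the ring's values was not tested. Of the 9 cardiomyocyte markers, 2 were higher and 6 lower in Nrf1, and 6 were higher and 2 lower in Nrf2 samples compared to LacZ by limma, where 34.7% of all genes were higher and 32.3% lower in Nrf1, and 28.5% higher and 26.0% lower in Nrf2 samples.

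In Nrf2 against LacZ, which shares the LacZ libraries with the comparison above, the ring moved less. *Psmb3* again led, at 1.58-fold, with a log2 difference of 0.67 ± 0.07 and a limma adjusted p of 2.55e-06. *Psmb6* was 1.36-fold of LacZ (0.45 ± 0.07, limma adjusted p = 6.75e-05) and *Psmb5* 1.34-fold (0.42 ± 0.05, limma adjusted p = 2.82e-06). *Psmb1* was 1.21-fold (0.28 ± 0.04, limma adjusted p = 1.55e-05), *Psmb4* 1.16-fold (0.21 ± 0.04, limma adjusted p = 2.35e-04) and *Psmb7* 1.13-fold (0.17 ± 0.05, limma adjusted p = 0.0107). *Psmb2* did not pass the test, at 1.06-fold and 0.09 ± 0.04 on the log2 scale (limma adjusted p = 0.111), which does not show that its level was equal. In 9 other fits its adjusted p by limma ran from 0.0387 to 0.304, and 1 of them was under 0.05. *Psmb7* came nearest to the threshold among the genes that rose, with a limma adjusted p of 0.046 without Nrf2 library c.

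Only *Psmb3* passed 1.5-fold in Nrf2 samples, beside 9.14% of all genes tested. By limma 6 of the 7 genes rose, whereas 28.5% of all genes did. All 7 were higher in every Nrf2 library than in any LacZ library, *Psmb2* included, as were 31.6% of the genes. The median log2 ratio over the ring was 0.28, beside -0.003 over all genes, and it was 0.42 over the protease subunits and 0.24 over the structural subunits. Of the tested genes, 7.59% had a higher ratio than *Psmb3* and 40.1% had a higher ratio than *Psmb2*. The ring took 0.116% ± 0.0017 (SD, n = 3) of the reads in recovered genes of Nrf2 libraries, and its summed normalised count was 11304 to 11660.

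The RNA of the ring was also compared directly between Nrf2 and Nrf1 samples, a comparison with its own deposited table. In it, 7 of 8 fibroblast markers were higher in Nrf2 samples by limma and 1 was lower. Of 9 cardiomyocyte markers, 7 were higher and 2 lower, where 3227 of all 11303 genes were higher and 3411 lower. The part of these shifts in the ring's values was not tested. *Psmb4* differed most, with a mean in Nrf2 samples that was 0.412 of that in Nrf1 samples (-1.28 ± 0.03 on the log2 scale, limma adjusted p = 2.24e-17). Only 0.459% of the 11326 genes tested had a lower ratio. *Psmb3* followed at 0.458 (-1.13 ± 0.04, limma adjusted p = 1.24e-14) and *Psmb6* at 0.483 (-1.05 ± 0.04, limma adjusted p = 3.01e-13). *Psmb7* was at 0.516 of Nrf1 (-0.95 ± 0.03, limma adjusted p = 1.96e-14), as was *Psmb2* at 0.518 (-0.95 ± 0.03, limma adjusted p = 2.93e-14). *Psmb1* and *Psmb5* differed least, at 0.710 (-0.49 ± 0.03, limma adjusted p = 6.04e-11) and 0.735 (-0.45 ± 0.03, limma adjusted p = 3.31e-09). These genes had the smallest ratios in Nrf1 over LacZ and the largest shares of the Nrf1 rise in Nrf2 samples. Their small difference follows from those values and is no separate result.

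In this direct comparison 5 of the 7 genes were at least 1.5-fold lower in Nrf2 samples, beside 4.98% of all genes tested, and *Psmb1* and *Psmb5* were not. All 7 were lower by limma, as were 30.2% of all genes, and all 7 were lower in every Nrf2 library than in any Nrf1 library, as were 32.7%. The median log2 ratio over the ring was -0.95, beside -0.008 over all genes. The deposited table of this comparison rests on the same Nrf1 and Nrf2 libraries as the LacZ tables. Taking the same ratio through the LacZ tables moved no gene of the ring by more than 0.01 on the log2 scale. Only the size factors could differ between these routes, so this is no independent check.

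**Figure D2:**
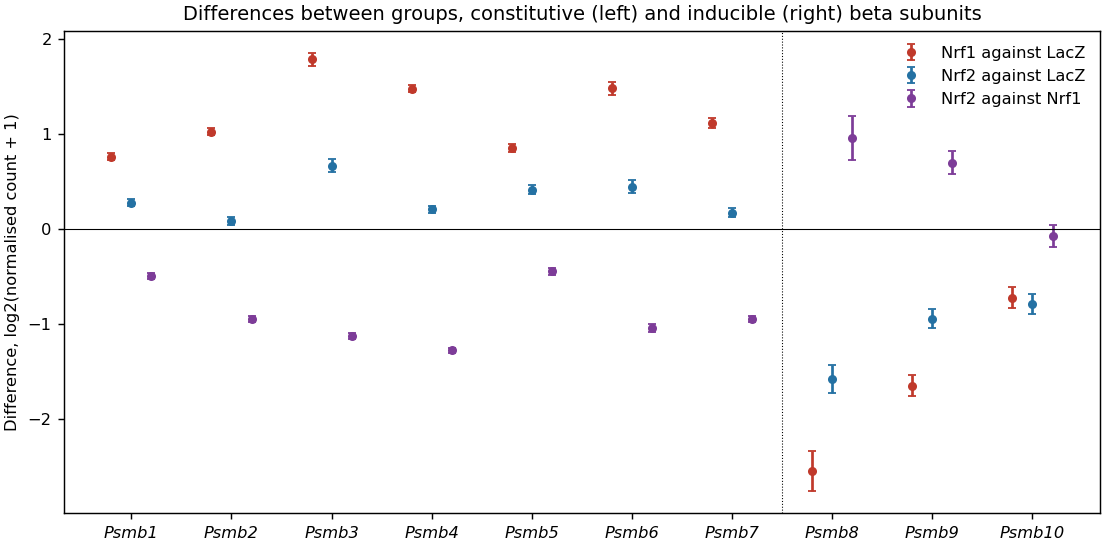
Differences between groups (y axis, log2(normalised count + 1)) with their standard errors by limma for the 7 constitutive beta subunits, left of the dotted line, and the 3 inducible subunits, right of it. Nrf1 against LacZ ran from 0.77 for *Psmb1* to 1.79 for *Psmb3*, Nrf2 against LacZ stayed between 0.09 and 0.67, and the inducible subunits lay below 0 in both comparisons with LacZ.

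Because the genes rose by different amounts, the make-up of the summed ring count differed between groups. *Psmb1* made up 22.2% ± 0.63 (SD, n = 3) of the ring's normalised counts in LacZ libraries and was the most abundant by reads, whereas in Nrf1 libraries *Psmb4* came first with 22.7% ± 0.12 and *Psmb1* took 16.5% ± 0.38. *Psmb3* took 10.2% ± 1.03 in LacZ, 15.3% ± 0.24 in Nrf1 and 13.0% ± 0.49 in Nrf2 libraries. These groups did not overlap for *Psmb3*, with at most 11.3% in LacZ, at least 12.5% in Nrf2 and at least 15.1% in Nrf1 libraries. *Psmb5* took 14.2% ± 0.28 in LacZ, 11.2% ± 0.07 in Nrf1 and 15.3% ± 0.49 in Nrf2 libraries, so that its share was below that of LacZ in one group and above it in the other. *Psmb7* differed little, at 16.5% ± 0.83, 15.6% ± 0.48 and 15.01% ± 0.09, and its Nrf1 and LacZ libraries overlapped. *Psmb6*, at 6.69% ± 0.76 in LacZ, 8.18% ± 0.43 in Nrf1 and 7.35% ± 0.03 in Nrf2 libraries, remained the smallest share throughout, and *Psmb2* was at 11.7% ± 0.69, 10.5% ± 0.08 and 10.1% ± 0.35. These are shares of reads, which are not divided by transcript length, so they compare a gene between groups and not a gene with another.

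The same differences can be read within single libraries, where scaling plays no part. The pair *Psmb3* and *Psmb1* is shown because these genes had the highest and the lowest ratio in Nrf1 over LacZ, so their ratio restates those values. LacZ libraries had 0.526, 0.412 and 0.436 reads of *Psmb3* per read of *Psmb1*, Nrf1 libraries 0.932, 0.931 and 0.919, and Nrf2 libraries 0.577, 0.593 and 0.623. Reads of *Psmb4* per read of *Psmb5* were 1.32 ± 0.06 in LacZ, 2.03 ± 0.02 in Nrf1 and 1.14 ± 0.07 in Nrf2 libraries. Reads of *Psmb2* per read of *Psmb5* shifted less between LacZ and Nrf1, at 0.829 ± 0.05 in LacZ, 0.934 ± 0.01 in Nrf1 and 0.659 ± 0.04 in Nrf2 libraries. No test was run on these ratios.

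**Figure D3:**
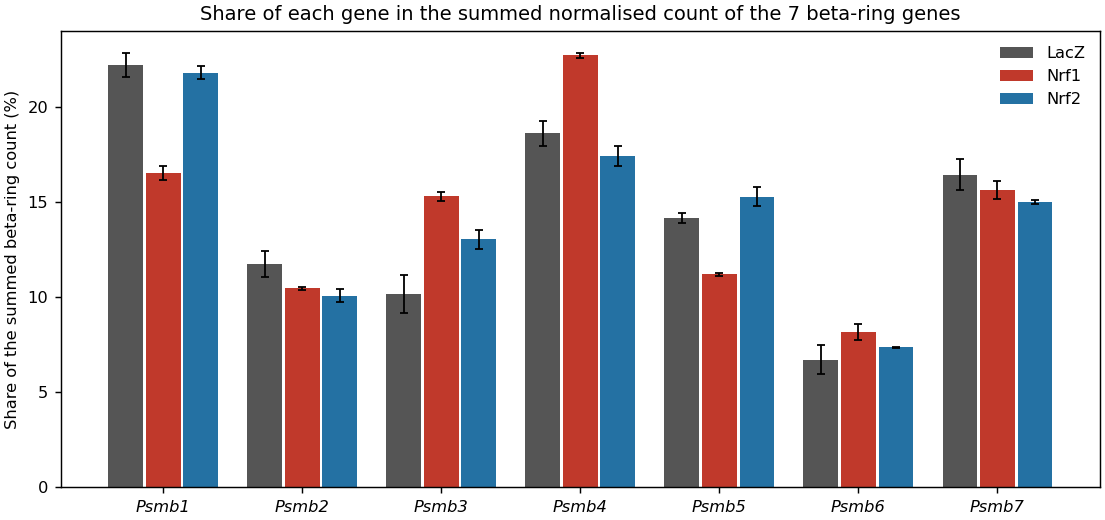
Share of each gene in the summed normalised count of the 7 beta-ring genes (y axis, percent), with bars for the mean and error bars for the SD of 3 libraries of LacZ, Nrf1 and Nrf2. *Psmb1* was at 22.2% in LacZ and 16.5% in Nrf1, *Psmb3* at 10.2% and 15.3%, and *Psmb4* at 18.6% and 22.7%.

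The inducible partners of the proteases went the opposite way. *Psmb8*, the partner of *Psmb5*, had 145, 152 and 120 normalised counts in LacZ, 17.0, 33.2 and 20.6 in Nrf1 and 50.5, 38.5 and 47.8 in Nrf2 libraries. No group overlapped another, and the Nrf1 values rest on 18 to 34 reads. By limma *Psmb8* fell by 2.55 ± 0.21 on the log2 scale in Nrf1 (adjusted p = 3.50e-08) and by 1.58 ± 0.15 in Nrf2 samples (adjusted p = 5.15e-07). *Psmb9*, the partner of *Psmb6*, had 193, 198 and 192 normalised counts in LacZ, 63.4, 63.4 and 57.2 in Nrf1 and 98.6, 108 and 95.5 in Nrf2 libraries. Here too the groups were apart, with a fall of 1.65 ± 0.11 in Nrf1 (limma adjusted p = 3.16e-09) and of 0.94 ± 0.10 in Nrf2 samples (limma adjusted p = 1.46e-06). *Psmb10*, the partner of *Psmb7*, had 210, 179 and 178 normalised counts in LacZ, 113, 103 and 126 in Nrf1 and 111, 98.9 and 116 in Nrf2 libraries. It fell by 0.73 ± 0.11 in Nrf1 (limma adjusted p = 3.00e-05) and by 0.79 ± 0.11 in Nrf2 samples (limma adjusted p = 2.25e-05), and between the factors its libraries overlapped (-0.07 ± 0.11, limma adjusted p = 0.609). In Nrf2 samples compared to Nrf1 samples *Psmb8* was higher by 0.96 ± 0.23 (limma adjusted p = 0.00160) and *Psmb9* by 0.70 ± 0.12 (limma adjusted p = 9.43e-05). The thymus subunit *Psmb11* was near the floor, at 4 to 16 reads per library.

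Against LacZ, these opposite moves add up in the ratio of a protease subunit to its partner, which restates the values above. LacZ libraries had 9.60 ± 1.15 (SD, n = 3) reads of *Psmb5* per read of *Psmb8*, Nrf2 libraries 39.1 ± 5.66 and Nrf1 libraries 110 ± 35.7, the last with a range of 70.9 to 141. Reads of *Psmb6* per read of *Psmb9* were 3.21 ± 0.41 in LacZ, 8.44 ± 0.54 in Nrf2 and 28.5 ± 1.94 in Nrf1 libraries. Reads of *Psmb7* per read of *Psmb10* were 8.14 ± 0.38, 16.0 ± 1.28 and 29.5 ± 3.51, respectively. For all 3 pairs the order was LacZ, Nrf2, Nrf1, with no overlap between groups. The step from Nrf2 to Nrf1 in the last pair came with *Psmb7*, as the *Psmb10* libraries overlapped between the factors. How many other pairs of genes would show such an order was not computed. Markers of leukocytes, a cell type known to express the inducible subunits without stimulation, were also lower in sum in both groups (964 to 987 in Nrf1 and 893 to 1001 in Nrf2 against 1609 to 2364 in LacZ libraries), *Csf1r* excepted, and their part in these ratios was not tested.

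**Figure D4:**
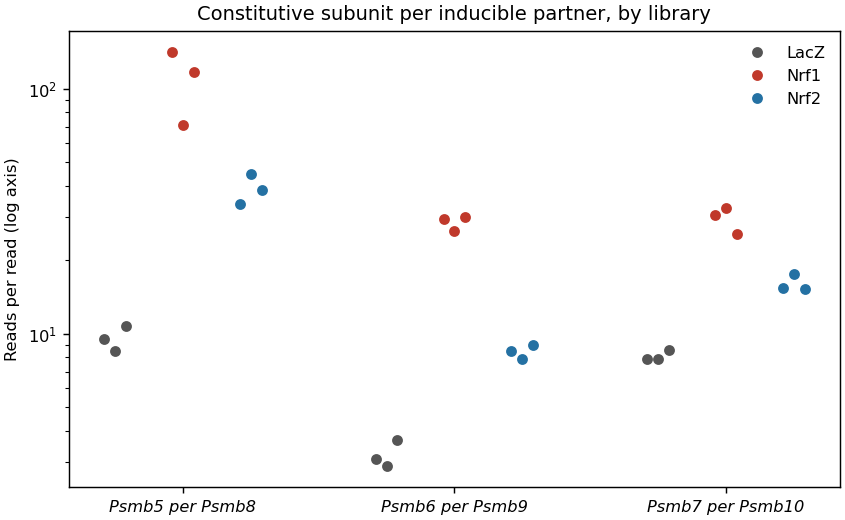
Reads of a constitutive protease subunit per read of its inducible partner (y axis, log scale) in each library of LacZ, Nrf1 and Nrf2. For *Psmb5* per *Psmb8* the LacZ libraries lie at 8.48 to 10.8, the Nrf2 libraries at 33.7 to 45.0 and the Nrf1 libraries at 70.9 to 141, and the other pairs keep this order.

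Other proteasome genes are given beside the ring, and their counts are to be read against the shares of all genes, which were 11.5% past 1.5-fold and 34.7% higher by limma in Nrf1 over LacZ, 9.14% and 28.5% in Nrf2 over LacZ, and 4.98% and 30.2% in the downward direction of Nrf2 over Nrf1. The alpha ring, 7 genes, had a median log2 ratio of 1.09 in Nrf1 over LacZ, with all 7 past 1.5-fold, from 0.88 (*Psma6*) to 1.65 (*Psma5*). In Nrf2 over LacZ its median was 0.48, with 3 of 7 past 1.5-fold and 7 higher by limma, from 0.14 (*Psma7*) to 0.82 (*Psma5*). In Nrf2 over Nrf1 the median was -0.77, with 4 of 7 lower by 1.5-fold and 7 lower by limma. In each group the summed normalised count of the alpha ring, at 9768 to 10419 in LacZ, 23074 to 23558 in Nrf1 and 13969 to 14436 in Nrf2 libraries, was above that of the beta ring, though neither sum is divided by length.

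The 19S particle, which caps the barrel, recognises ubiquitin and unfolds substrates, was also higher. Of 10 base genes, which include the ATPases of the Psmc family, 10 passed 1.5-fold in Nrf1 over LacZ (median 1.11, from 0.77 for *Psmd4* to 1.38 for *Psmc5*). In Nrf2 over LacZ 1 of 10 did (median 0.26, from 0.11 for *Psmd4* to 0.60 for *Psmd1*), although 10 of 10 rose by limma. Of 9 lid genes, 8 passed 1.5-fold in Nrf1 over LacZ (median 1.02, from 0.25 for *Shfm1* to 1.36 for *Psmd11*) and 2 in Nrf2 over LacZ (median 0.31, from 0.05 for *Psmd8* to 1.15 for *Psmd6*). *Psmd6* was the exception in the direct comparison, with more RNA in Nrf2 samples by 0.12 ± 0.03 (limma adjusted p = 0.00478), while 8 of 9 lid genes were lower. In Nrf2 over Nrf1 the base had a median of -0.71, and 10 of 10 base genes differed downward by at least 1.5-fold.

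The listed assembly genes help to build the core, as *Pomp* and the Psmg family do, or the 19S base, as *Psmd5*, *Psmd9* and *Psmd10* do. Of 9 such genes 7 were found, with a median log2 ratio of 0.55 in Nrf1 over LacZ (from -0.09 for *Psmg4* to 0.91 for *Psmd9*) and 0.39 in Nrf2 over LacZ (from 0.08 for *Psmg4* to 0.77 for *Psmd5*). By limma 5 of 7 rose in Nrf1 and 4 of 7 in Nrf2 samples, beside 34.7% and 28.5% of all genes. The assembly median was below that of the beta ring in Nrf1 over LacZ and above it in Nrf2 over LacZ. Among 5 activators and inhibitors, the medians were 0.42 (from -0.43 for *Psme2* to 0.84 for *Psme4*) and 0.23 (from -0.54 for *Psme2* to 0.45 for *Psme4*). *Psme1*, a subunit of the interferon-inducible cap, fell by 0.33 ± 0.05 in Nrf1 samples (limma adjusted p = 2.16e-05). In Nrf2 over LacZ *Psme1* was at 0.05 ± 0.05 (limma adjusted p = 0.397). *Psme2* was at -0.49 ± 0.23 in Nrf1 over LacZ (limma adjusted p = 0.066) and at -0.54 ± 0.16 in Nrf2 over LacZ (limma adjusted p = 0.0127).

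**Figure D5:**
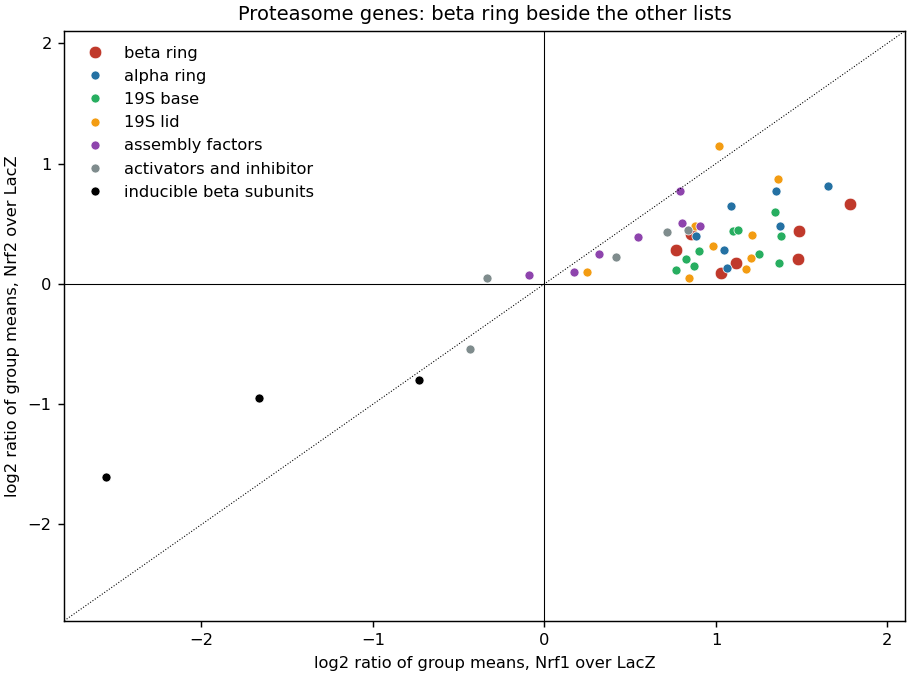
Each point is a proteasome gene, placed by its log2 ratio of group means in Nrf1 over LacZ (x axis) and in Nrf2 over LacZ (y axis), with the line of equal ratios dotted. These comparisons share their LacZ libraries. The 7 beta-ring genes lie right of the line, at 0.77 to 1.78 on the x axis and 0.09 to 0.66 on the y axis, and the 3 inducible subunits lie below 0 on both.

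The genes most like the ring were sought as those nearest to its median log2 ratios, 1.12 in Nrf1 and 0.28 in Nrf2 over LacZ, among 8213 genes with an average group mean of at least 100. *Emc1*, a subunit of a membrane protein insertase of the ER, had log2 ratios of 1.12 and 0.33. *Akap5*, an anchor of protein kinase A, had 1.09 and 0.24, *Blmh*, a cytosolic cysteine protease, had 1.10 and 0.34, and *Unc119*, a carrier of lipid-modified proteins, had 1.05 and 0.29. Of the 50 nearest genes, 9 were from the proteasome lists above, which held 38 of the genes ranked. With an average mean of at least 1000 instead, 2 of the 5 nearest genes stayed among the nearest 5, so which genes are named depends on that minimum.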

How the data were processed

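RNA of 9 NRVM libraries, 3 each for LacZ, Nrf1 and Nrf2, was sequenced from a stranded mRNA kit as 75-bp single-end reads. Per the study's methods and the submitters' processing notes, reads were checked with FastQC 0.11.4, aligned to Rnor_6.0 with HISAT2 2.0.4, freed of duplicates with SAMtools 0.1.18, counted with featureCounts 1.6.0 and compared with edgeR 3.20.5. The authors deposited 3 tables, 1 per pair of groups, and the signal used here is the deposited mean over a group's libraries of counts divided by size factors. The tables also hold the authors' fold changes, p-values and adjusted p-values, which were not used, and 0 columns of single samples. Each of the 7 ring genes had more reads in at least 1 library than bases in its longest coding mouse transcript (GENCODE vM21), up to 3419 reads for 766 bases in *Psmb3*, so reads that share a start may have been kept. Transcript lengths of the rat were not used.

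A group mean is a sum of whole reads, each worth a fixed step per library, and each group stands in 2 tables with different steps. Solving both equations gave 1 set of whole reads for 14678 of 14679 LacZ genes, 14579 of 14579 Nrf1 genes and 14746 of 14746 Nrf2 genes. Size factors recomputed from these reads as medians of ratios differed from the steps by at most 0.0102%. The methods name edgeR, and which tool gave the deposited means and p-values was not settled. The recovery and the test were run on simulated data, the outcome of which is not given here. Its added spread between libraries was the same for all genes and below that of *Psmb3* in LacZ libraries. It is therefore no check of the test at the real spread.

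Ratios are those of the deposited group means, for genes with an average group mean of at least 10, read against a cutoff of 1.5. The planned design had no test, because the tables hold means. limma 3.58.1 (R 4.3.3) on log2(normalised count + 1), with a trend and the 6 libraries of a pair, was added once the reads were recovered, with Benjamini-Hochberg adjustment over all genes. Levels per library use size factors over 9 libraries. Libraries held 7894221 to 11960378 reads in recovered genes, and counting error alone gives a ring gene a coefficient of variation of 1.45% to 4.21%, by group. The ring, the lists and the rule for named genes (the ring, its inducible and thymus counterparts, the 5 nearest genes, the lowest and highest of each list, and *Nfe2l2*) were chosen with earlier results of these data known. *Psmd6* in the direct comparison, *Psme1* and *Csf1r* were named after their values were seen. Of the 5 nearest genes, 1 is not reported here. Alternatives were other cutoffs, filters, pseudocounts, scalings, subsets of the ring, voom weights and leaving out each library.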

Additional observations from a re-analysis of the deposited data

How the results depend on the processing

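No paired analysis was possible because the tables carry no replicate numbers and the recovered libraries could not be matched to those of the labels. All 7 ring genes passed the cutoff in Nrf1 over LacZ under 10 of 11 alternatives, the exception being a cutoff of 2, which 5 passed, and 9 other limma fits called 7 genes there, 6 to 7 in Nrf2 over LacZ and 7 in Nrf2 over Nrf1. With a cutoff of 2, 0 ring genes passed in Nrf2 over LacZ (1 at 1.5-fold) and 3 in Nrf2 over Nrf1 (5 at 1.5-fold), and with the lower cutoff tried, 3 passed in Nrf2 over LacZ and 7 in Nrf2 over Nrf1, where 7 also passed 1.5-fold under scaling on ribosomal protein genes. At a cutoff of 2, 3.96% of all genes passed in Nrf1 over LacZ, 4.09% in Nrf2 over LacZ and 1.13% in Nrf2 over Nrf1. With no filter on low values, 15.6% and 8.72% passed 1.5-fold in the last 2 comparisons. Neither for the lower cutoff nor for the ribosomal scaling was a share of all genes computed, so those ring counts stand without a background. Ribosomal scaling lowers the log2 ratio of every gene in Nrf2 over Nrf1 by 0.201, and its share of all genes may rise too.

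The ring's median log2 ratio in Nrf1 over LacZ (1.12) was 1.06 re-centred on the median gene, 1.06 under total scaling, 1.28 scaled on ribosomal protein genes, 1.19 from summed means, 1.255 over the structural genes and 1.06 to 1.18 with a library left out. In Nrf2 over LacZ (0.28) it was 0.20 (0.204) under total scaling, 0.42 (0.418) over the protease genes and 0.264 to 0.298 with a library left out. In Nrf2 over Nrf1 (-0.95) it was -0.918 re-centred, -1.15 on ribosomal protein genes, -0.895 from summed means, -1.04 over the structural genes and -0.978 to -0.95 with a library left out. The cause of these shifts was not tested beyond what each setting does by construction, and no value changed its direction. Depth limits *Psmb8* in Nrf1 samples, at 18 to 34 reads, and *Psmb11* in all groups.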
